A study of Saccharomyces cerevisiae with 16 samples.

Results

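The response of G1-arrested esa1-L254P cells to methyl methanesulfonate (MMS) was read from 2 of the 16 two-colour arrays of the series, chosen by their labels. On each array the RNA of yeast cells exposed to 0.05% MMS for 1 h was hybridised together with the RNA of untreated cells of the same strain, W303 carrying esa1-L254P::NatRMX4. All of these cells, treated and untreated, had been held in G1 with α-factor for 1 h. In replicate 1 the MMS RNA carried Cy5, and in replicate 2 the dyes were exchanged. The labels gave no growth temperature, no clone number and no statement on whether both arrays used the same RNA, so that the p-values below measure the spread between arrays, which may be technical. The comparisons drawn on for reference also had 2 dye-swapped arrays each. The first was MMS over untreated in W303 wild-type cells in G1 under the same arrest. Another was MMS over untreated in esa1-L254P cells arrested for 2 h and released into medium with or without MMS for 1 h (S phase). A correlation is also given with the response of wild-type cells arrested and released in this way. The others were esa1-L254P over wild type in G1, once untreated and once with MMS.

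ESA1 encodes the catalytic subunit of NuA4, the essential acetyltransferase of yeast that acetylates histone H4 and the H2A variants and acts as a coactivator, with a long-known part in the transcription of ribosomal protein genes. esa1-L254P is a point allele of that gene. MMS methylates DNA bases, and also proteins and other nucleophiles, and in growing yeast it induces repair genes along with a broad environmental stress programme in which protein turnover and antioxidant genes rise and ribosome synthesis genes fall. α-factor, the mating pheromone of the opposite cell type, holds MATa cells before DNA replication, where many MMS lesions do not meet a replication fork.

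Values are log2 ratios of MMS over untreated, one per array and gene, so that 1 is a doubling. They were read as Cy5 over Cy3, which the labels make likely because channel 1 is Cy5 and limma, the tool named by the submitters, forms its ratio that way, and replicate 2 was turned. The base of the logarithm was taken as 2. Neither is stated, and with the opposite ratio every sign below would turn. Both channels were under α-factor, so a ratio cannot check the arrest. The point allele leaves ESA1 transcript in place, and its level does not check the genotype either. All 8 comparisons were fitted together with limma over 4073 genes, and calls were made at 0.05 on p-values adjusted by the Benjamini-Hochberg method over those genes. A mean of both arrays is followed by its moderated standard error after the ± sign (n = 2 arrays). Duplicate spots of a gene correlated at 0.915 in replicate 1 and at 0.946 in replicate 2 once the spot order was found.

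With MMS, 552 genes were higher (13.6% of the 4073 tested) and 593 were lower (14.6%) in arrested esa1-L254P cells. At a change of 2-fold or more, 43 genes were called higher (1.06%) and 74 lower (1.82%). In all 1145 called genes (28.1%) both arrays lay on the same side of 0. The fit nearly requires this, because a gap between the arrays widens the error of a gene. Of all genes tested, 1195 had their arrays on opposite sides. Across all genes the arrays correlated at r = 0.462 after replicate 2 was turned, which is a description of both arrays and no test. With the replicate number, which is the dye orientation, as a block, the same means gave 971 higher (23.8%) and 1119 lower (27.5%). The counts were also moved by single arrays. Without replicate 1 there were 231 genes higher and 344 lower, and without replicate 2 there were 197 higher and 221 lower, although the array that remains then carries its dye effect and is assumed to vary like the other comparisons.

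Among called genes, the rises were led by SSU1, the plasma membrane sulfite pump, at 3.56 in replicate 1 and 1.63 in replicate 2 (mean 2.60 ± 0.70, adjusted p = 0.0204). GRE2, a methylglyoxal reductase, read 2.81 and 1.43. UBI4, the polyubiquitin gene, read 2.80 and 1.28. For all 3 the replicate with MMS in Cy5 was the higher one by more than 1 unit. Other large rises were nearly equal on both arrays. FRM2, a nitroreductase-like protein, was at 2.11 and 1.89 (2.00 ± 0.18, adjusted p = 0.000134), and TIS11, which directs the decay of messages for iron-dependent proteins, at 1.93 and 1.71 (1.82 ± 0.09, adjusted p = 9.41e-06). The largest mean of all genes was that of AHP1, a peroxiredoxin, at 3.81 and 1.49 (2.65), which was called with the block only (adjusted p = 0.106, with the block 0.000877). TRX2, a cytosolic thioredoxin, was likewise at 3.05 and 1.01 (2.03, adjusted p = 0.146, with the block 0.00216).

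Among the genes that fell, sterol and respiratory genes filled most of the leading places. ERG3, the sterol C-5 desaturase, was at -1.96 in replicate 1 and -3.18 in replicate 2 (mean -2.57 ± 0.53, adjusted p = 0.0062). CYB5, cytochrome b5, an electron donor to sterol enzymes, was at -1.62 and -3.27. NDE1, the external NADH dehydrogenase of mitochondria, read -1.88 and -2.61, and OLE1, the fatty acid desaturase, -1.51 and -2.41. In each of these genes replicate 2 gave the lower value. PHO3, an acid phosphatase (-1.76 and -2.08), and PTR2, the di- and tripeptide transporter (-1.51 and -1.57), fell by similar amounts on both arrays.

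**Figure D1:**
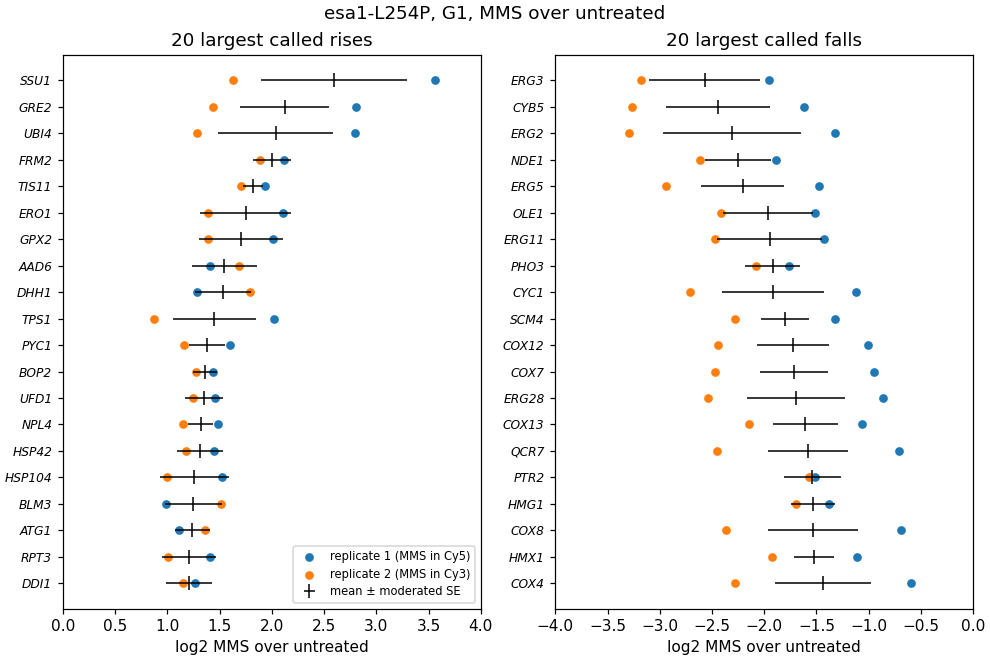
The 20 genes with the largest called rises (left) and the 20 with the largest called falls (right), as log2 MMS over untreated in arrested esa1-L254P cells. Blue points are replicate 1, orange points replicate 2, and the black mark is the mean with its moderated SE: FRM2, TIS11, BOP2 and PTR2 have both arrays close together, whereas SSU1, UBI4 and most ERG and COX genes have them more than 1 unit apart.

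Of the 19 measured damage-inducible genes, 7 rose (11 with the block) and 1 fell. MAG1, the glycosylase that removes methylated bases, was at 1.04 and 0.67 (0.86 ± 0.16, adjusted p = 0.00444), and DDI1, its divergently transcribed neighbour and a ubiquitin-binding protein, at 1.27 and 1.15 (1.21 ± 0.22, adjusted p = 0.00316). DIN7, a mitochondrial nuclease, read 0.69 and 0.56, RAD16 0.56 and 0.42, RAD23 0.28 and 0.62 and RAD2 0.27 and 0.57. RAD16, RAD23 and RAD2 act in nucleotide excision repair. PLM2, a forkhead-associated protein induced by damage in cycling cells, instead fell, with -0.76 and -1.29.

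None of the 11 measured genes of ribonucleotide reductase and its regulators was called by limma, although 3 were higher with the block. The means of the list ran from -0.31 to 1.31. RNR1, the large subunit, was at -0.74 and 0.12, RNR2 at 0.11 and -0.64, and RNR4 at -0.14 and -0.46. RNR3, the damage-induced large subunit, was at -0.021 and 0.014. HUG1, a small damage-induced inhibitor of the enzyme, had a mean of 0.06 ± 0.14 (adjusted p = 0.784). In the released mutant the same 5 genes stood at 1.20, 0.85, 0.99, 0.99 and 0.68 in the order RNR1, RNR2, RNR4, RNR3 and HUG1. There 6 of the 11 genes were called higher and 1 lower (8 and 2 with the block). The response in G1 minus that in S phase was called lower for 2 of the 11 and higher for none (7 and 2 with the block).

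Of 25 homologous recombination genes, 6 rose and none fell, or 12 and 2 with the block. RFA1, the large subunit of the single-strand binding protein RPA, was at 0.99 and 0.73, RAD52, the recombination mediator, at 0.73 and 0.92, RAD59 at 0.90 and 0.64, and TOP3, a topoisomerase, at 0.52 on the mean of both arrays. Base excision repair had 2 higher and 1 lower of 13, with MAG1 and TDP1, a phosphodiesterase (0.38 and 0.62), higher and the glycosylase OGG1 lower (-0.49 and -0.68). In nucleotide excision repair 4 of 18 rose, among them the TFIIH helicase SSL2 (0.63 and 0.51), and 1, TFB4, fell (-0.26). Translesion synthesis and PCNA modification had 1 higher and 2 lower of 15. UBC13, a ubiquitin-conjugating enzyme for PCNA, rose (0.72 and 0.49). REV7, a subunit of DNA polymerase zeta (-0.70 and -0.50), and ELG1, which unloads PCNA (-0.59 and -0.59), fell, while REV1 (-0.23), REV3 (-0.18) and RAD30 (0.12) were not called, and of these REV3 was called lower with the block (adjusted p = 0.0238). Of 17 checkpoint genes 2 fell, RTT107 (-1.12 and -0.55) and RAD9 (-0.32 and -0.13), and none rose. With the block, 3 members rose and 3 fell in base excision repair, 5 and 4 in nucleotide excision repair, 1 and 5 in the translesion list and 3 and 5 in the checkpoint list. With 1 or 2 called members a direction, the base excision, translesion and checkpoint lists lie close to the share of all genes that was called.

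Protein turnover genes were among the groups with the largest positive medians. The 39 proteasome genes had a median of 0.80, against -0.0016 over all genes, and 35 of them were above 0 on both arrays. Only 12 of the 39 were called higher (30.8%), and 21 with the block. The list's median was 1.19 in replicate 1 and 0.43 in replicate 2. RPT3, an ATPase of the regulatory particle, was at 1.41 and 1.01, PRE8, a core particle subunit, at 1.57 and 0.78, and RPN6, of the lid, at 1.37 and 0.80. RPN4, the transcription factor for proteasome genes, was at 0.37 and 0.59 (0.48 ± 0.14, adjusted p = 0.0332). The single called fall in the list was CIC1 (-0.96 and -1.26), a nucleolar protein of the large ribosomal subunit's assembly that also stands in the ribosome biogenesis list.

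The ubiquitin and Cdc48 list had 14 of 29 members higher (48.3%) and none lower (1 with the block). After UBI4, the largest values were those of UFD1 (1.46 and 1.24) and NPL4 (1.49 and 1.15), the paired cofactors with which the ATPase Cdc48 extracts ubiquitinated proteins. UBR2 (1.00 and 0.65), the ligase that targets Rpn4, and UBR1 (0.94 and 0.59), of the N-degron pathway, also rose. Autophagy genes had the highest share of called rises of the lists with 20 or more members, 17 of 25 (68.0%), with 1 lower (2 with the block). ATG1, the kinase that starts autophagy, was at 1.11 and 1.36, ATG7, the E1-like enzyme, at 0.91 and 1.21, ATG15, the vacuolar lipase, at 0.73 and 1.13, and APE1, a vacuolar aminopeptidase delivered by the same machinery, at 1.12 and 0.63. ATG10 was the member that fell (-0.24 ± 0.08). In these genes both arrays were close, and the list's median was 0.42 in replicate 1 and 0.52 in replicate 2. ESCRT genes, which sort ubiquitinated membrane proteins, had 3 of 18 higher (16.7%, near the 13.6% of all genes), namely VPS27 (0.56), BRO1 (0.50) and HSE1 (0.48). In that list 1 gene was lower, or 3 with the block, and its median was 0.02.

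Heat shock chaperones had 11 of 30 members higher and none lower (17 and 3 with the block). HSP42, a small heat shock protein, was at 1.44 and 1.17, the disaggregase HSP104 at 1.52 and 1.00, BTN2, which sequesters misfolded proteins, at 1.08 and 1.10, HSP82 at 1.07 and 0.94, and STI1, its co-chaperone, at 1.01 and 0.97. Transcript of HSF1, the heat shock factor itself, rose as well (0.79 and 0.85). The general stress genes driven by Msn2 and Msn4 had 14 of 29 higher and 1 lower. GAD1, glutamate decarboxylase (1.07 and 1.34), and the aldehyde dehydrogenase ALD3 (1.11 and 1.02) led. The member that fell was CTT1, the cytosolic catalase, at -0.42 and -0.18 (-0.30 ± 0.09, adjusted p = 0.0358), and MSN4 itself was at 0.24 and 0.23 without a call. Storage carbohydrate genes had 13 of 24 higher and 1 lower. TPS1, trehalose-6-phosphate synthase (2.02 and 0.87), TSL1, a subunit of the same complex (1.01 and 0.82), the glycogen branching enzyme GLC3 (1.32 and 0.56) and PGM2, phosphoglucomutase (0.83 and 1.15), rose together with the trehalases NTH1 (0.42 and 0.82) and ATH1 (0.50 and 0.62), so that enzymes of trehalose synthesis and breakdown were both higher.

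Redox genes linked to the transcription factor Yap1 had 11 of 35 members higher (19 with the block) and 1 lower. YAP1 was at 1.36 and 0.94, GPX2, a glutathione peroxidase, at 2.01 and 1.39, ZWF1, the entry enzyme of the pentose phosphate pathway, at 1.54 and 0.84, and YCF1, the vacuolar glutathione conjugate pump, at 1.14 and 0.74. Among 6 aryl-alcohol dehydrogenases, AAD6 (1.40 and 1.69), AAD3 (0.63 and 1.01) and AAD4 (0.59 and 0.66) rose, and none fell (1 with the block). This family is nearly identical in sequence, and the probes may not tell its members apart. Endoplasmic reticulum folding genes had 6 of 28 higher (10 with the block) and none lower (1 with it), led by ERO1, the oxidase that forms disulfide bonds (2.11 and 1.39), with the chaperone LHS1 (0.76 and 0.93), MPD1, a disulfide isomerase (0.72 and 0.66), and HAC1, the unfolded protein response factor (0.34 and 0.58). The sulfur list had 12 of 35 higher and 5 lower. STR3, cystathionine beta-lyase (0.94 and 1.47), the sulfate permease SUL1 (1.15 and 0.92), MET3, ATP sulfurylase (0.78 and 0.87), and GSH1, the first enzyme of glutathione synthesis (0.84 and 0.76), rose with SSU1. SAM2, S-adenosylmethionine synthetase (-0.92 and -0.85), MMP1, the S-methylmethionine permease (-0.70 and -0.71), and the regulators MET31 (-0.86 and -0.54) and MET32 (-0.24 and -0.39) fell.

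**Figure D2:**
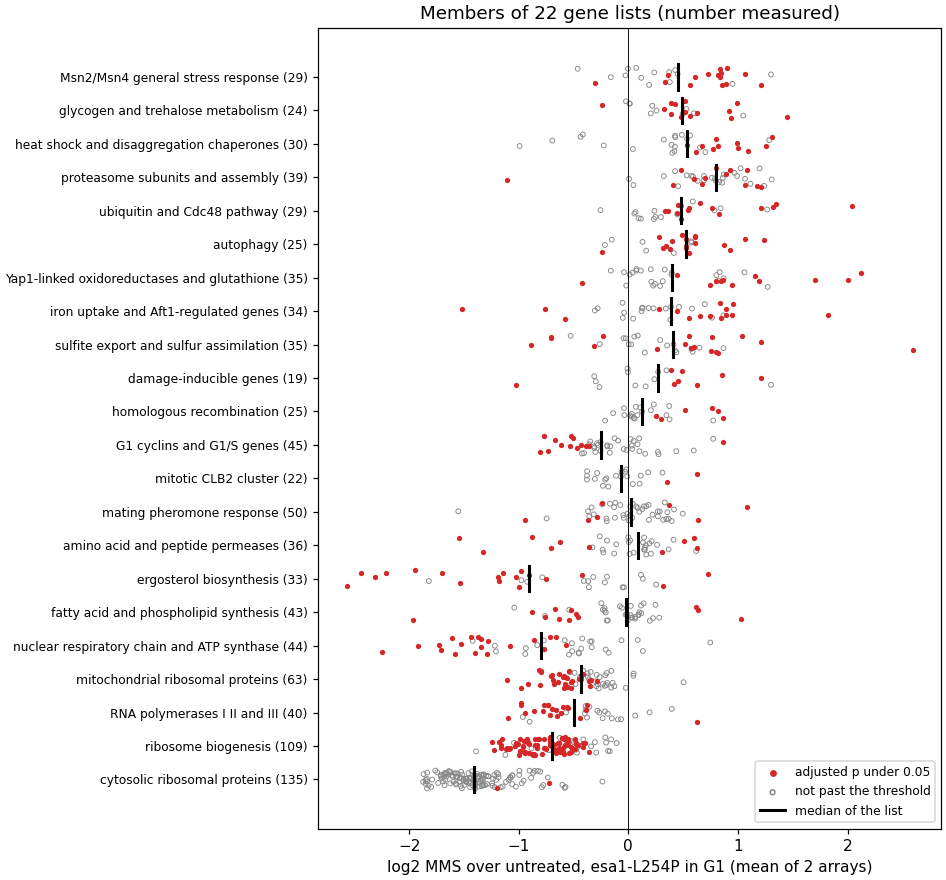
Mean log2 MMS over untreated of each measured member of 22 gene lists in arrested esa1-L254P cells, with called genes in red, other genes as open circles and the list median as a black bar. The autophagy list has 17 of 25 members called higher, the ribosome biogenesis list 87 of 109 called lower, and the cytosolic ribosomal protein genes lie furthest left as a group (median -1.41) with 2 called.

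Iron genes, most of them targets of Aft1, had 12 of 34 members higher and 3 lower. Besides TIS11, the multicopper oxidase FET5 (0.71 and 1.20), the siderophore transporters SIT1 (1.04 and 0.84), ARN1 (0.94 and 0.86) and ENB1 (0.74 and 0.96), and the mitochondrial iron carrier MRS4 (0.73 and 1.05) rose. HMX1, the heme oxygenase, fell (-1.12 and -1.93), as did FET4, the low-affinity iron transporter (-0.76 and -0.77), and FRE4 (-0.62 and -0.54). AFT1 transcript was at -0.07 and -0.03, without a call. Of 16 genes for zinc, copper and other metals none rose by limma (2 with the block) and 4 fell: the zinc transporters ZRT1 (-0.78 and -0.85) and ZRC1 (-0.51 and -0.51), the copper transporter CTR3 (-0.36 and -0.72) and SMF1, a manganese transporter (-0.33 and -0.29).

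Ergosterol biosynthesis had 16 of 33 members lower (48.5%) and 2 higher, with a median of -0.90. The falls were spread along the pathway. HMG1, an HMG-CoA reductase of the early part, was at -1.38 and -1.69, ERG11, the lanosterol demethylase, at -1.43 and -2.47, ERG28, a scaffold of the demethylation complex, at -0.86 and -2.53, and ERG2 and ERG5 of the late part at -1.32 and -3.29 and at -1.48 and -2.94. The list's median was -0.48 in replicate 1 and -1.15 in replicate 2. HMG2, the second HMG-CoA reductase, moved the other way to HMG1, at 0.62 and 0.84 (0.73 ± 0.13, adjusted p = 0.00258), and HAP1, the heme-responsive activator, was at 0.25 and 0.38. UPC2, an activator of sterol genes (-0.04), and ROX1, the repressor of hypoxic genes (-0.05), were not called.

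Lipid synthesis had 9 of 43 members lower and 3 higher. OLE1, the fatty acid synthase subunits FAS1 (-0.40 and -1.36) and FAS2 (-0.46 and -0.62), and the inositol transporter ITR1 (-0.57 and -0.70) fell. INO1, which makes inositol phosphate, rose at 0.94 and 1.11 (1.03 ± 0.13, adjusted p = 0.000611), as did MGA2, an activator of OLE1 (0.63 and 0.63), and the choline kinase CKI1 (0.47 and 0.76). Among 27 heme and oxygen-regulated genes, 8 fell (13 with the block) and 3 rose. Both cytochrome c isoforms fell, the aerobic CYC1 (-1.13 and -2.71) and the hypoxic CYC7 (-0.81 and -0.91), as did the hypoxic mannoproteins TIR1 (-0.65 and -1.10) and TIR3 (-0.72 and -0.86). The ferrochelatase gene HEM15 rose (0.55 and 0.86), and HEM13, an earlier step of heme synthesis, was at 0.25 and -0.37 without a call.

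Nuclear genes of the respiratory chain and ATP synthase had 20 of 44 members lower (45.5%) and none higher, with a median of -0.80. Of these, COX12 was at -1.01 and -2.44, COX7 at -0.95 and -2.47, COX13 at -1.07 and -2.15, and QCR7 at -0.71 and -2.45. They encode small subunits of cytochrome c oxidase and, for QCR7, of the bc1 complex. In each, replicate 2 was lower by over 1 unit. Mitochondrial ribosomal protein genes had 33 of 63 members lower (52.4%), 50 with the block, and none higher, and here the arrays were alike, with list medians of -0.39 and -0.43. MRPL44 was at -1.21 and -0.996 (-1.10 ± 0.11, adjusted p = 0.000179), MRPL31 at -0.71 and -0.93, MRPL15 at -0.70 and -0.92 and MRPL49 at -0.79 and -0.81. COX17, the copper chaperone of cytochrome c oxidase (-1.07 and -1.18), and PET117, an assembly factor (-1.01 and -1.29), fell by similar amounts on both arrays.

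Several of these groups consist of short genes, and short genes as a whole were lower. Across 4065 genes with a known length, the mean response rose with length at Spearman's rho = 0.260, at 0.0913 in replicate 1 and 0.331 in replicate 2, as a description across genes. The 357 genes of up to 500 bases had a median of -0.38, and 24.9% of them were called lower and 4.48% higher. Among the 417 genes over 3000 bases the median was 0.10, with 10.1% lower and 17.3% higher. Respiratory chain genes had a median length of 454.5 bases, mitochondrial ribosomal protein genes of 717 and cytosolic ribosomal protein genes of 771. Proteasome genes, with a median length of 867 bases, had a median response of 0.80. In wild-type G1 cells rho was -0.139, and in the released mutant -0.00497. The part of gene length in the falls of these groups was not tested.

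**Figure D3:**
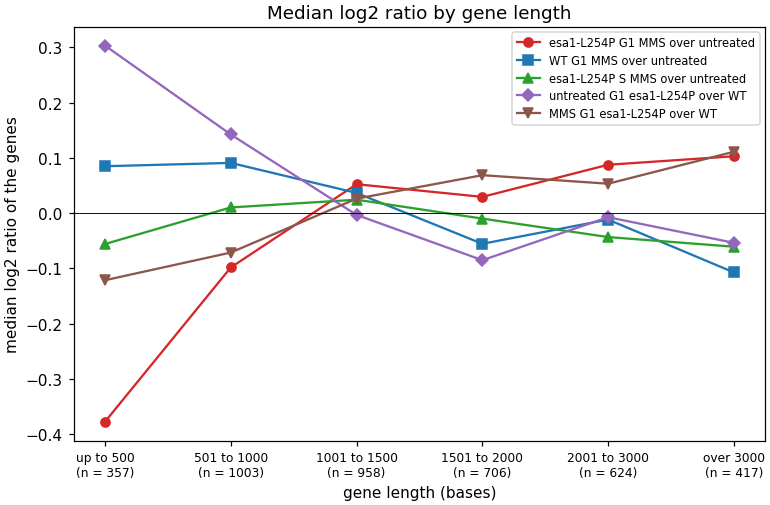
Median log2 ratio of the genes in 6 classes of gene length, for MMS over untreated in arrested esa1-L254P cells (red), in arrested wild-type cells (blue) and in released esa1-L254P cells (green), and for esa1-L254P over wild type in G1 without (purple) and with MMS (brown). The red line runs from -0.38 at up to 500 bases to 0.10 over 3000 bases, and the purple line runs the opposite way; these share the untreated mutant G1 condition.

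Nutrient genes were mixed. Of 24 hexose transporter and sensor genes 7 fell, among them HXT4 (-0.99 and -1.56), HXT2 (-0.73 and -0.67), the glucose sensor RGT2 (-0.68 and -0.35) and the corepressor MTH1 (-0.79 and -0.86), and HXT5 rose (0.17 and 0.26). With the block 10 were lower and 2 higher. Permeases for amino acids, peptides and related compounds had 4 of 36 higher (11.1%, and 10 genes with the block) and 6 lower (16.7%), close to the shares of all genes. PUT4, the proline permease (-1.11 and -1.54), fell with PTR2, and AGP3 (0.62 and 0.63) and MUP3 (0.72 and 0.47) rose. Phosphate-regulated genes had 5 of 28 lower (17.9%) and 1 higher (8 and 4 with the block), with PHO5 at -1.17 and -1.50 next to PHO3, a close paralog whose spots may take its signal, and GIT1 at -0.95 on both arrays. Amino acid biosynthesis outside lysine, arginine and sulfur had a median of 0.40 with 6 of 52 called higher (11.5%), which is no more than the share of all genes, with 2 lower, or 15 and 4 with the block. GCN4, the activator of these pathways, read 1.06 in replicate 1 and -1.04 in replicate 2, so its mean of 0.01 ± 1.02 carries no direction. In carbon metabolism PYC1, pyruvate carboxylase (1.60 and 1.16), IDP1, the mitochondrial isocitrate dehydrogenase that yields NADPH (1.31 and 1.07), and the hexokinase GLK1 (1.46 and 0.92) rose, and the malic enzyme MAE1 fell (-0.51 and -0.92).

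Among genes of ribosome synthesis, those of biogenesis fell alike on both arrays, whereas those of the ribosomal proteins were low mainly in replicate 2. Ribosome biogenesis genes had 87 of 109 members called lower (79.8%) and none higher, with list medians of -0.63 and -0.73 on the arrays, and 107 of the 109 were below 0 on both. KRR1, of the small subunit processome, was at -1.23 and -1.21, SRP40, a nucleolar chaperone, at -1.27 and -1.09 (-1.18 ± 0.08, adjusted p = 4.6e-05), the helicase DHR2 at -1.17 and -1.15, and NOP15 at -1.06 and -1.25. Subunits of RNA polymerases I, II and III and the factors listed with them had 20 of 40 lower and 1 higher (2 with the block). RPO26 and RPB5, which all 3 polymerases share, were at -0.62 and -1.58 and at -0.53 and -1.42, RPC31 of polymerase III at -0.72 and -1.17, and RPA12 of polymerase I at -0.65 and -1.07. RRN10, of an upstream activation factor for polymerase I, rose (0.72 and 0.53).

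The 135 cytosolic ribosomal protein genes had the lowest median of all lists, -1.41, but their median was -0.26 in replicate 1 and -2.57 in replicate 2, and 110 were below 0 on both arrays. Only 2 were called lower by limma, RPL9B (-0.80 and -1.60) and RPS7B (-0.53 and -0.92). With the block, which takes out a term for dye or replicate number common to all 16 arrays, 131 were. The 5 genes whose arrays differed most all came from this family: RPS30A (0.20 and -3.00), RPS30B (-0.07 and -3.26), RPL33A (0.23 and -2.93), RPS28A (-0.07 and -3.20) and RPL23A (0.02 and -3.03). Each was called lower with the block only, at adjusted p-values from 0.000142 (RPS30B) to 0.00843 (RPL33A). Most members have a near-identical paralog, whose transcripts the probes may not tell apart. Among translation factors and transfer RNA synthetases, 2 of 54 fell, the synthetase gene WRS1 and GCD14, of a transfer RNA methyltransferase, and 15 were lower with the block.

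**Figure D4:**
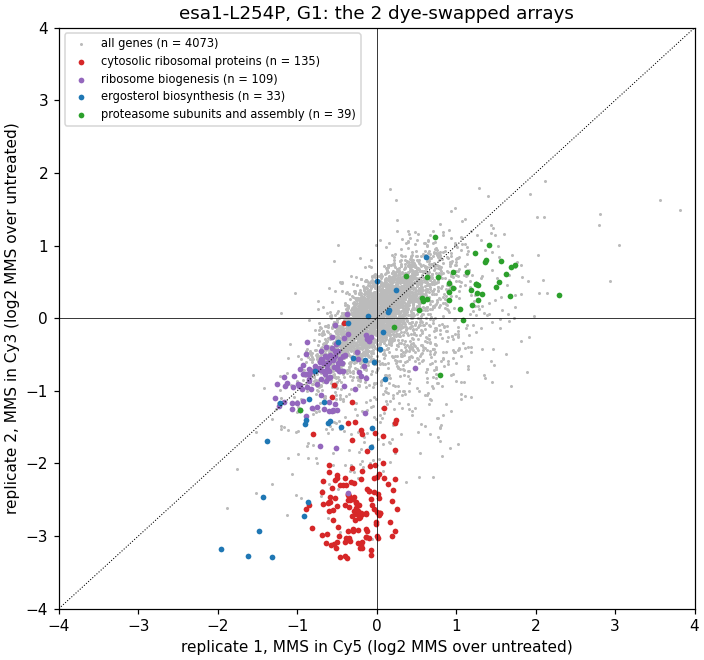
Each gene's log2 MMS over untreated in replicate 1 (MMS in Cy5, horizontal) and replicate 2 (MMS in Cy3, vertical, turned) of arrested esa1-L254P cells, with the dotted line at equal values. Ribosome biogenesis genes (purple) lie along the line at about equal values, cytosolic ribosomal protein genes (red) lie near 0 horizontally and near -2.57 vertically, and proteasome genes (green) lie below the line, higher in replicate 1.

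Message decay and translation control had 6 of 44 members higher (13.6%, the share of all genes) and 3 lower (6.82%), or 14 and 6 with the block. DHH1, the helicase that activates decapping, was at 1.28 and 1.79 (1.54 ± 0.27, adjusted p = 0.00272), the deadenylase CCR4 at 0.35 and 0.53, EDC1, an activator of decapping, at 0.62 and 0.68, and PAN3 at 0.47 and 0.28. The LSM ring subunits LSM2 (-0.54 and -0.79) and LSM5 (-0.42 and -0.41) and the nonsense-mediated decay factor UPF3 (-0.65 and -0.52) fell.

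Genes of the G1-to-S transition had 12 of 45 members lower (20 with the block) and 1 higher (3 with it), the higher one being RFA1. CLB6 (-0.83 and -0.79) and CLB5 (-0.86 and -0.48), the S phase cyclins, the cyclins PCL1 (-0.83 and -0.71) and CLN1 (-0.61 and -0.40), and MCD1, a cohesin subunit (-0.53 and -0.95), fell. CLN2 (-0.19 ± 0.09, adjusted p = 0.128) and CLN3 (-0.35 ± 0.31, adjusted p = 0.437) were called lower with the block only (adjusted p = 0.027 and 0.00318). Among 43 replication genes 4 rose (9.3%), including MCM4 (0.54 and 0.52), and 5 fell (11.6%), including POL1 (-0.59 and -0.45) and DBF4 (-0.39 and -0.46). Both shares are below those of all genes. With the block 6 rose and 14 of the 43 fell, the falls being above the 27.5% of all genes that fell with it. The mitotic CLB2 cluster had 2 of 22 higher, KIP2 (0.43 and 0.82) and MOB1 (0.34 and 0.37), and none lower (5 with the block). Of 50 pheromone response genes 3 rose and 4 fell (6% and 8%, below the shares of all genes), and 9 fell with the block. FUS1, a strongly induced target, was at 1.13 and -0.13 and the receptor gene STE2 at 0.57 and -0.59, neither called. MF(ALPHA)2, an α-factor precursor gene, rose (1.06 and 1.11), and the pheromone kinase STE11 rose (0.77 and 0.50). PRM10 (-1.13 and -0.76) and the transcription factor STE12 (-0.37 and -0.19) fell. Sporulation genes had 6 of 50 higher (12%, and 10 genes with the block) and 11 lower (22%), the largest being RIM4 at 0.61 and SSP1 at -0.71.

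NuA4 subunit genes had 1 of 12 higher (2 with the block) and 4 lower. EAF1, the scaffold of the complex, was at 0.44 and 0.45. EAF6 (-0.65 and -0.37), EAF5 (-0.43 and -0.55), YNG2 (-0.34 and -0.18) and ESA1 itself (-0.22 and -0.22, adjusted p = 0.0424) fell. Among 31 other acetylation and remodelling genes 3 rose (7 with the block) and 3 fell, 9.68% in each direction and below the shares of all genes. The remodeller ISW1 was at 1.13 and 0.89, and the MYST family acetyltransferase genes SAS2 (-0.61 and -0.57) and SAS3 (-0.42 and -0.27), relatives of ESA1, fell. Of 11 histone genes HHO1, the linker histone, rose (0.63 and 0.51), and with the block CSE4, the centromeric histone, was also called (-0.38 and -0.14, adjusted p = 0.00432). The list's median was 0.39 in replicate 1 and -0.77 in replicate 2.

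The 4 G1 comparisons form a closed loop, so that the other 6 G1 arrays give an indirect estimate of the same response: the wild-type response plus the strain difference with MMS minus the strain difference without. These comparisons share conditions, and possibly RNA, with the direct one, and the values are set side by side as a description. No gene differed between direct and indirect values at an adjusted p under 0.05 by limma, with 11 genes at an unadjusted p under 0.05, and with the block none and 67 (1.64% of genes). A deviation shared by arrays of the same replicate number drops out of these means but widens the standard error without the block. Both counts lie below the share that a threshold of 0.05 passes without any difference, so the lack of calls shows no agreement. The median absolute difference was 0.11, against a median SE of that difference of 0.29. TIS11 had 1.82 directly and 1.70 indirectly, NPL4 1.32 and 1.33, BLM3 (a symbol kept as given on the array) 1.25 and 1.22, and UBI4 2.04 and 1.90. MAG1, at 0.86 directly, was at 0.26 indirectly, ERG3 was at -2.57 and -1.68, and NDE1 at -2.25 and -1.28. The ribosomal protein genes had a median of -1.41 directly and -1.04 indirectly, ribosome biogenesis genes -0.70 and -0.79, mitochondrial ribosomal protein genes -0.43 and -0.45, and proteasome genes 0.80 and 0.89.

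In wild-type cells under the same arrest 794 genes were higher (19.5%) and 690 lower (16.9%), or 1183 and 1124 with the block. Of the 552 genes higher in the mutant, 216 were also higher in wild type. That is 39.1% of the mutant's and 27.2% of wild type's, and 35 were called in the opposite direction. Of the 593 lower in the mutant 236 were lower in wild type, 39.8% of the former and 34.2% of the latter, and 119 were called in the opposite direction. The difference between strains was tested itself, from all 8 G1 arrays. An estimate from the MMS comparisons, the mutant's response minus that of wild type, was averaged with an estimate from the strain comparisons. The latter was the strain difference with MMS minus the strain difference untreated. A printed difference can therefore depart from the gap between the responses beside it. The averaged difference was higher for 825 genes (20.3%) and lower for 878 (21.6%), or 1278 (31.4%) and 1289 (31.6%) with the block. Both estimates draw on the same conditions, and possibly the same RNA, whereas the fit takes the arrays as independent. In either direction, the MMS comparisons alone gave 987 genes and the strain comparisons alone 1084, against 1703 for the mean. DHH1 differed most upward, at 1.54 in the mutant and -0.68 in wild type (difference 2.16 ± 0.27, adjusted p = 0.000185). The helicase DED1 was at 0.63 against -1.48 (difference 2.01), SPE1, ornithine decarboxylase, at 0.73 against -1.20 (1.86), and SRO9, an RNA-binding protein, at 0.33 against -1.26 (1.60). For DHH1, DED1, SPE1 and SRO9 the untreated mutant stood below untreated wild type (-0.78, -1.08, -0.64 and -0.80), and with MMS it stood above it (1.33, 0.82, 1.15 and 0.81). These strain comparisons are part of the difference that chose the genes, and are no separate evidence. The mutant's own response was called with the block only for DED1 (adjusted p = 0.0524, with the block 0.000266) and SPE1 (0.109 and 0.000619). OLI1, a mitochondrially encoded subunit of ATP synthase, was at 1.19 against -0.14 (1.49). AI5_ALPHA and AI5_BETA, also mitochondrial, differed by 1.62 and 1.46, and their responses in the mutant were called with the block only (adjusted p = 0.094 and 0.201, with the block 9.09e-05 and 0.000324). IDP1 differed by 1.45.

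Downward, FYV6 was at -0.61 in the mutant and 1.09 in wild type (difference -1.67 ± 0.07, adjusted p = 4.25e-06). NOP15 was at -1.16 against 0.42 (-1.65), HMRA1 at -0.65 against 0.89 (-1.65), VMA10, of the vacuolar ATPase, at -0.90 against 0.98 (-1.85), and SLF1, an RNA-binding paralog of SRO9, at 0.43 against 1.91 (-1.63). HMRA1 has the sequence of the active MATa1 gene, and the spots cannot tell them apart. RPL20B (-1.89), EGD2, of the nascent polypeptide-associated complex (-1.77), and the initiation factor TIF11 (-1.68) completed the 8, with mutant replicates over 1 unit apart. Their responses in the mutant, and that of SLF1, were called with the block only (adjusted p = 9.12e-05 for RPL20B, 0.00316 for EGD2, 0.00164 for TIF11 and 0.0195 for SLF1). In each of these 8 genes the untreated mutant was above untreated wild type (0.96 to 1.34), and with MMS it was below (-0.39 to -0.78). These values enter the difference by which the genes were chosen, so they describe it and are no separate evidence. Across 4065 genes with a known length, the strain difference rose with gene length at Spearman's rho = 0.328. Its median was -0.48 for genes of up to 500 bases and 0.23 for those over 3000. The part of gene length in the differences of these genes, or of the lists below, was not tested.

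By list, mitochondrial ribosomal protein genes differed downward in 37 of 63 members and upward in 4 (41 and 8 with the block), from medians of -0.43 in the mutant and 0.05 in wild type. The untreated strain difference of these genes had a median of 0.41, and that with MMS -0.15. Ribosome biogenesis genes differed downward in 56 of 109 and upward in 5 (70 and 11 with the block), with medians of -0.70 and -0.29. Cytosolic ribosomal protein genes had medians of -1.41 and -0.19 with 1 of 135 called lower for the difference, or 99 lower and 4 higher with the block. Permeases differed upward in 23 of 36 and downward in 1, with medians of 0.09 in the mutant and -0.49 in wild type. In wild type 17 permease genes fell and none rose, or 26 and 2 with the block. General stress genes differed upward in 13 of 29 and downward in 4, and lipid synthesis genes upward in 15 of 43 and downward in 2. Proteasome, ubiquitin and autophagy genes had similar medians in both strains (0.80 and 1.00, 0.48 and 0.57, 0.52 and 0.47). Of their 39, 29 and 25 members, 0, 3 and 8 differed upward and 3, 4 and 9 downward (3, 6 and 9, and 5, 6 and 13, with the block). For proteasome and ubiquitin genes this is below the shares of all genes (20.3% upward and 21.6% downward). For autophagy it is above both, so single autophagy genes differed between the strains behind similar medians. Sporulation genes, of which 18 of 50 were higher in wild type with MMS and 6 in the mutant, differed downward in 23 and upward in 3 (30 and 5 with the block).

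**Figure D5:**
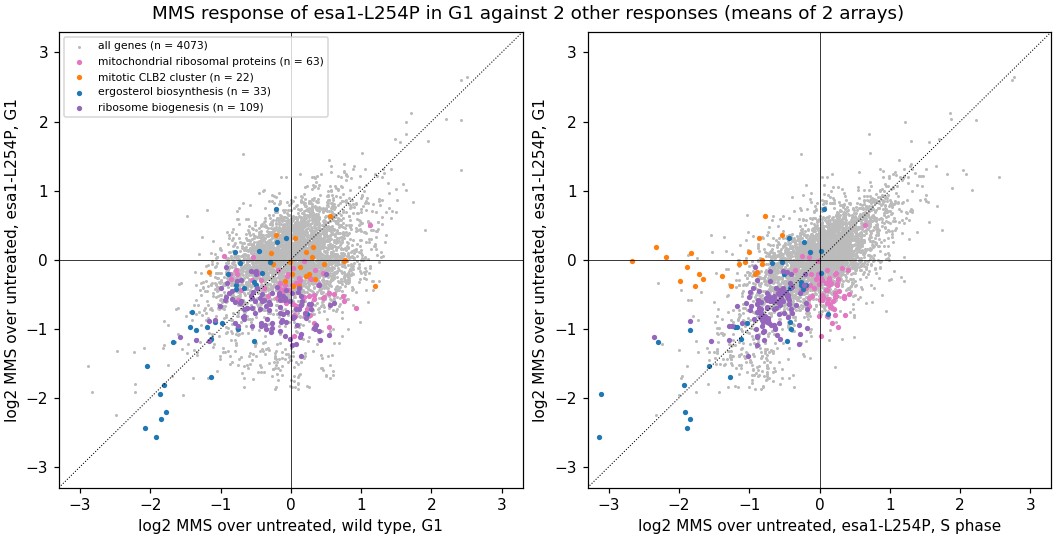
Mean log2 MMS over untreated of each gene in arrested esa1-L254P cells (vertical) against arrested wild-type cells (left) and released esa1-L254P cells (right), with the dotted line at equal values. Mitochondrial ribosomal protein genes (pink, medians -0.43 here, 0.05 in wild type and 0.11 in the released mutant) lie below 0 on the vertical axis in both panels, and the CLB2 cluster (orange) lies far to the left in the right panel only.

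The same strain after release into S phase was compared in the same way. Of the 552 genes higher in G1, 311 were also higher in S phase (56.3% of the former, 47.0% of the 662 higher there, 16.3% of genes). Of the 593 lower, 314 were lower in S phase (53.0%, and 45.4% of the 692 lower there, 17% of genes). In the opposite direction, 19 of the genes higher here and 45 of those lower here were called in S phase. Whether these overlaps exceed those with wild type was not tested. With the block, 1030 genes were higher and 1235 lower in S phase. Across all genes the mean response here correlated at r = 0.41 with that of arrested wild type and at 0.68 with that of the released mutant. With the response of released wild-type cells r was 0.72. These correlations are a description across genes. The G1 response minus the S phase response was called higher for 196 genes (4.81%) and lower for 222 (5.45%), or 602 (14.8%) and 525 (12.9%) with the block. The arrest also differed in length between the phases. Most of the leading positive differences were mitotic genes that fell in S phase and stayed near 0 under arrest: SWI5 at -0.02 in G1 and -2.66 in S phase (difference 2.64 ± 0.29, adjusted p = 0.000843), HOF1 at 0.18 and -2.33, HST3 at 0.04 and -2.19, CHS2 at 0.10 and -1.82, and CLB2 at -0.11 and -1.89. SUR7, a membrane protein of eisosomes, was at -0.34 and -2.30. In the CLB2 cluster 20 of 22 genes differed upward. DHH1 (1.54 and -0.26, difference 1.80) and SRO9 (0.33 and -1.36, difference 1.68) again stood among the 8 leading genes.

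In the other direction, MCD1 was at -0.74 under arrest and 0.95 after release (difference -1.69 ± 0.21, adjusted p = 0.00117), PMS1, a mismatch repair gene, at -0.52 and 0.89, the cohesin-associated PDS5 at -0.29 (called with the block only, adjusted p = 0.00214) and 1.01, and the kinase KCC4 at -0.63 and 0.67. COX17 (-1.13 and 0.49) and PET117 (-1.15 and 0.32), and FYV6 (-0.61 and 0.74), fell in G1 and were above 0 in S phase. G1-to-S genes differed downward in 14 of 45 and mitochondrial ribosomal protein genes in 20 of 63, and neither had more than 1 member that differed upward (22 and 34 downward, 7 and 1 upward, with the block). For the mitochondrial ribosomal protein genes the median was -0.43 under arrest and 0.11 after release. There 4 rose and none fell, or 10 and 4 with the block. Iron genes differed upward in 6 of 34 (13 with the block) and downward in none, with TIS11 at 1.82 and 0.70, ARN1 at 0.90 and 0.19 and SIT1 at 0.94 and 0.12. In ribosome biogenesis, by contrast, medians were -0.70 in both phases, and 1 gene differed upward and 4 downward (7 and 9 with the block).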

How the data were processed

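Per the labels, polyA RNA was primed with oligo-dT and labelled with Cy3 or Cy5. The authors deposited normalized log2 ratios, and R 3.1.1 and limma 3.0 are named in the submitters' processing notes. Background correction, normalization, log base and ratio direction are not given in the sources used here. The 16 column medians lay between -0.0058 and 0.0048. Values did not follow the platform's spot numbers: duplicate spots correlated at -0.0302 to 0.0257 by number. Of 11088 systematic orderings scored on 2035 genes, the one used scored 1.25 and the next 0.0338. In 2035 other genes duplicates then correlated at 0.677 to 0.948. Every gene name rests on this order. Of 15744 spots 8152 named a gene and 7592 did not. Their averages gave 4073 genes (3940 symbols current, 125 updated, 8 kept).

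R 4.3.3 with limma 3.58.1 fitted all 16 arrays with 1 coefficient per comparison (8 residual degrees of freedom), on the values as deposited. The fit was also run on simulated arrays with independent noise beside a dye term. That run checks the code and does not bear on the calls made here. Deviations of same-numbered arrays correlated at 0.619 to 0.892 in 28 pairings of comparisons. The number, equal to the dye orientation, was therefore taken as pairing arrays, and its block stands beside counts it moves by over 1.5 times and calls it changes. Overlaps of called genes between comparisons, and counts at 2-fold or more, were made without the block only. The number of arrays limits the precision, and spot intensities were not used here.

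Genes are named by rule: the 20 largest called rises and falls with both arrays on the same side, up to 6 called members per direction of each of 52 lists, the 8 largest called strain and phase differences per direction, the 5 genes whose arrays differ most, and a set of fixed genes. AHP1, TRX2 and CSE4 were added after their values were seen. Members and lists were chosen with earlier results of these data known. Alternatives covered the block, arrays used, centring, scaling, spots, variance prior and arrays left out. Sequences were not used here.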

Additional observations from a re-analysis of the deposited data

Results flagged for a closer look

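The MMS response of arrested esa1-L254P cells differed from that of arrested wild-type cells in 825 genes upward and 878 downward. The difference itself was tested with limma over the G1 arrays, as the mean of the estimates from the MMS and the strain comparisons. The 8 largest upward differences, mutant minus wild type on the log2 scale, were those of DHH1 (2.16), DED1 (2.01), SPE1 (1.86), AI5_ALPHA (1.62), SRO9 (1.60), OLI1 (1.49), AI5_BETA (1.46) and IDP1 (1.45). The 8 largest downward differences were those of RPL20B (-1.89), VMA10 (-1.85), EGD2 (-1.77), TIF11 (-1.68), FYV6 (-1.67), NOP15 (-1.65), HMRA1 (-1.65) and SLF1 (-1.63).

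Within esa1-L254P the G1 response differed from the S phase response in 196 genes upward and 222 downward. The largest upward differences, G1 minus S phase, were those of SWI5 (2.64), HOF1 (2.51), HST3 (2.23), SUR7 (1.96), CHS2 (1.93), DHH1 (1.80), CLB2 (1.78) and SRO9 (1.68). The largest downward differences were those of MCD1 (-1.69), COX17 (-1.61), PET117 (-1.47), PMS1 (-1.40), FYV6 (-1.36), SLF1 (-1.31), KCC4 (-1.30) and PDS5 (-1.30). DHH1 and SRO9 stood in both upward sets, and FYV6 and SLF1 in both downward sets, where both differences contain the same mutant G1 arrays.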

How the results depend on the processing

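With the replicate number as a block (replicate block), counts became 971 higher and 1119 lower for the response, 2567 for the strain difference (1703 without it) and 1127 for the phase difference (418 without it). Leaving out an array of the comparison gave 197 to 231 genes higher and 221 to 344 lower, and leaving out any array of either comparison gave 207 to 270 for the phase difference. The array left then keeps the effect of its dye or replicate number. Scaling the arrays to equal spread gave 233 for the phase difference. The strain difference formed from only the MMS comparisons gave 987, and from only the strain comparisons 1084. Leaving out genes under 1000 bases, added after the data were seen, tested 2705 genes and gave 484 higher and 372 lower. The main fit gave 552 and 593 of 4073, so these counts also reflect the smaller number of genes tested. The other alternatives (G1 arrays only, centring, the first spot, spots that agree, a robust prior, the G1 loop) gave 368 to 668 higher and 429 to 705 lower. The direct minus indirect count was 0 in every setting run, which shows no agreement, because the test passed few genes even before adjustment. Of 297 called named genes none reversed under any alternative run, and 85 lost their call with G1 arrays only, 72 with scaling, 58 with the first spot, 134 without replicate 1 and 176 without replicate 2, against 0 with the block.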

Other observations

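Some groups outside the comparisons above also held called genes. Of 28 genes for vitamin B6 and NAD synthesis 6 rose with MMS in arrested esa1-L254P cells and 1 fell (9 and 4 with the replicate block). BNA3 was at 0.69 and 0.74 on the 2 arrays, BNA2, the first enzyme of NAD synthesis from tryptophan, at 0.61 and 0.54, and NMA2, which forms the NAD precursor, at 0.64 and 0.59, while BNA4 was at -0.46 and -0.51. Of 19 vacuolar proton ATPase genes 2 rose, STV1 (0.64 and 0.46) and RAV1 (0.52 and 0.34), and 2 fell, VMA10 (-0.23 and -1.56) and VMA22 (-0.75 and -0.93), which is 10.5% in each direction, and 4 fell with the block. In wild-type cells VMA22 was at 0.73.

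Cell wall and cell surface genes had 4 of 46 members higher (8.7%) and 3 lower (6.52%), below the 13.6% and 14.6% of all genes, or 6 and 6 with the block. The flocculin genes FLO11 (0.39 and 0.53) and FLO10 (0.36 and 0.35) rose, and both were at -0.45 in wild type. SCM4 (-1.32 and -2.28) and RLM1, the transcription factor of the cell integrity pathway (-0.78 and -0.73), fell. Of 11 subtelomeric COS genes, which are nearly identical in sequence, 1 was called, COS10 (0.64 and 1.08). Daughter-specific and M/G1 genes had 4 of 26 higher (15.4%, near the 13.6% of all genes), with DSE1 at 0.65 and 0.57. In that list 2 were lower (7.69%, below the 14.6% of all genes, and 4 genes with the block), with ASH1 at -0.48 and -0.25. Genes of the tricarboxylic acid and glyoxylate cycles had 4 of 25 higher (16%) and 2 lower (8%). Glycolysis and fermentation had 4 of 42 higher (9.52%) and 2 lower (4.76%), or 9 and 6 genes with the replicate block. The shares of all genes were 13.6% and 14.6%. Of 10 thioredoxin and peroxiredoxin genes 2 rose (20%, against 13.6% of all genes), TRR2 (0.47) and TSA2 (0.30). With the block 6 rose, among them AHP1 (2.65) and TRX2 (2.03), the largest of the list. In the lysine list 1 of 10 genes rose (10%), LYS5 (0.27), or 4 with the block, where 1 also fell. Of 16 arginine genes 3 rose (18.8%, against 13.6% of all genes), among them CAR2 (0.57) and CPA1 (0.64), or 5 with the block.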
